A study of Homo sapiens with 12 samples.

Results

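The mitochondrial ribosomal protein genes were followed in 2 uterine leiomyosarcoma (uLMS) cell lines. They were taken as the genes of the deposited count table whose symbol is MRPL or MRPS followed by a number and, in some, a letter from A to C. The table listed 60649 genes, of which 78 carried such a symbol, and 77 had 100 or more counts summed over the 12 libraries and were kept. Of these, 48 had MRPL symbols, given to proteins first assigned to the large subunit, and 29 had MRPS symbols, given to those first assigned to the small subunit. All 77 passed the filter on low counts and were among the 21114 genes tested.

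SK-UT-1B (from a primary tumor) and SK-LMS-1 (from a metastasis) are both labelled wild type, and each is a single cell line. Cells were exposed for 72 h to DMSO, the vehicle, to the gamma secretase inhibitor MK-0752 alone (SK-LMS-1 only), or to MK-0752 with gemcitabine and docetaxel, called the combination here. Each treatment was given at its IC30, the dose that inhibits 30% of growth or viability. In the combination, the paper gives each agent a lower dose than the IC30 of that agent alone. The MK-0752 dose was therefore lower in the combination than in MK-0752 alone, and doses also differed between the lines. The study sequenced treatments chosen for a decrease of HES1. The 12 RNA-seq libraries formed 6 groups of 2: SK-LMS-1 DMSO set 2, SK-LMS-1 DMSO set 4, SK-LMS-1 MK-0752, SK-LMS-1 combination, SK-UT-1B DMSO and SK-UT-1B combination. The set is the first number in the library name, and its meaning was not given in the sources used here. MK-0752 was compared with DMSO set 2 and the combination in SK-LMS-1 with DMSO set 4, because these carried the same first number. The SK-UT-1B combination libraries had a first number of 3 and their DMSO libraries had 4, so any effect of that number and the treatment cannot be told apart there. The same holds for that number and the line after the combination, where SK-LMS-1 carried 4, and for the difference between the lines' responses. Nothing in the labels says that libraries of a group came from separate cultures, so p-values measure only the spread between these libraries, which may be technical.

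Mitochondria keep their own ribosome, which translates the few mRNAs of the mitochondrial genome into core subunits of the respiratory chain and of ATP synthase. Its RNAs come from mitochondrial DNA, but all of its proteins are encoded in the nucleus, made on cytosolic ribosomes and imported. Some are homologs of bacterial ribosomal proteins and others are specific to mitochondria, and a complete particle needs nearly all of them.

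Total counts per library ran from 25250057 to 40709885, and 3 counts, the floor used here, corresponded to at most 0.12 CPM. CPM is the read count over the size of its library in units of 1000000 counts, the size being adjusted by the trimmed mean of M values (TMM). Of the smooth muscle markers, which summed to 869 to 1240 CPM in SK-LMS-1 and to 56.3 to 61.4 CPM in SK-UT-1B, DES was at 0 in all 8 SK-LMS-1 libraries, and MYH11 and MYOCD were each at 0 in 9 of the 12 libraries. Epithelial markers summed to 178 to 277 CPM in SK-LMS-1 and to at most 1.14 CPM in SK-UT-1B. Leukocyte markers reached at most 6.09 CPM and endothelial markers at most 9.40 CPM in any library. The lines thus differed in marker levels beside every line comparison below, and the part of these differences in the results was not tested.

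The summed level of the 77 genes was higher in SK-UT-1B. It was 3171 and 3322 CPM there after DMSO, and 2406, 2536, 2508 and 2474 CPM in the 4 libraries of SK-LMS-1 after DMSO. The groups did not overlap, and the ratio of SK-UT-1B to SK-LMS-1 was 1.31 ± 0.0522 (SD, from 2 and 4 libraries). The SK-UT-1B combination libraries, at 2751 and 2901 CPM, lay between the SK-UT-1B DMSO libraries and the SK-LMS-1 libraries, a ratio of 0.870 ± 0.0435 to SK-UT-1B DMSO. In SK-LMS-1, the sum was 2501 and 2453 CPM with MK-0752 and 2510 and 2470 CPM with the combination. These lay within the range of the SK-LMS-1 DMSO libraries, with ratios of 1.00 ± 0.0397 and 1.00 ± 0.0147 to their own DMSO sets. As a share of all counts, the genes made up 0.225% to 0.242% of each SK-LMS-1 library, 0.345% and 0.364% of the SK-UT-1B DMSO libraries and 0.325% and 0.324% of the SK-UT-1B combination libraries. The ratio between the lines was 1.51 on that scale. The genes with MRPL symbols summed to 1.48 to 1.76 times those with MRPS symbols, with both SK-UT-1B DMSO libraries, at 1.74 and 1.76, at the top of that range.

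**Figure D1:**
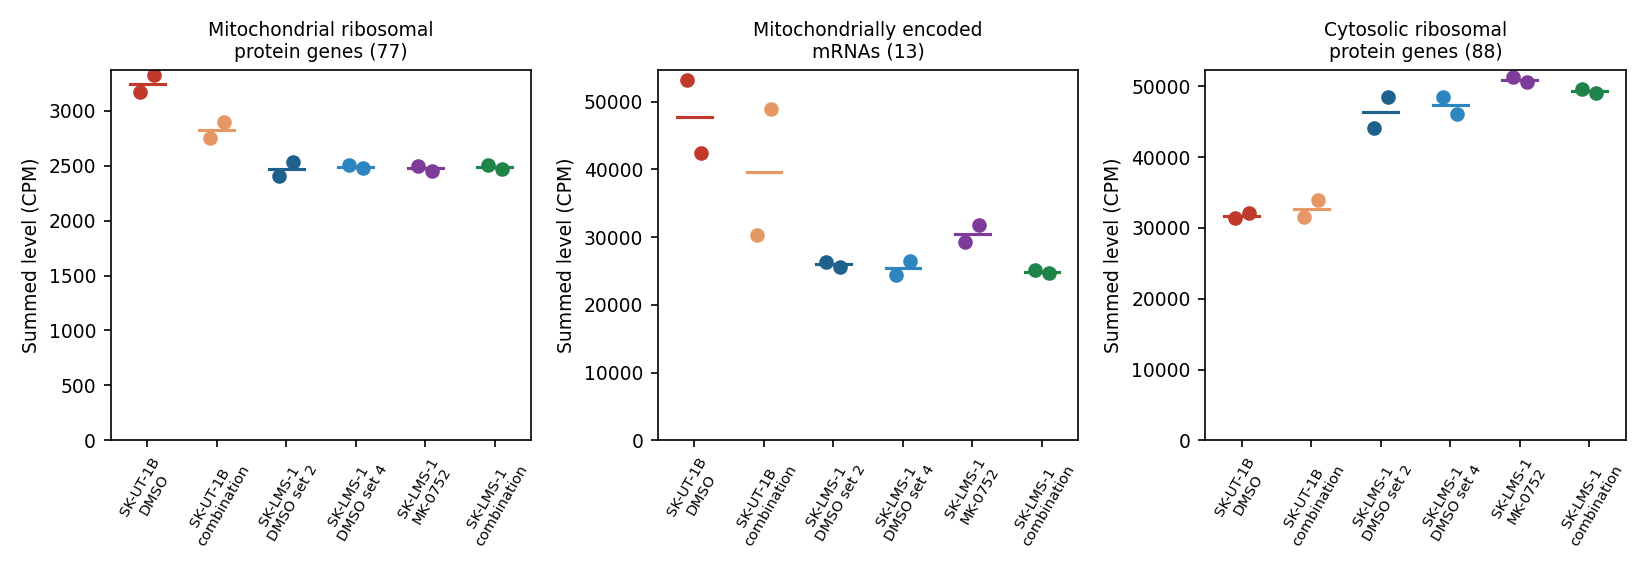
Summed level in CPM (y axis, from 0) of the mitochondrial ribosomal protein genes, the mitochondrially encoded mRNAs and the cytosolic ribosomal protein genes in the 6 groups (x axis); points are libraries and lines are group means. The SK-UT-1B DMSO libraries, at 3171 and 3322 CPM, are above every SK-LMS-1 library in the first panel, and all SK-UT-1B libraries are below every SK-LMS-1 library in the last.

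Levels between genes were compared as CPM per kilobase of the Ensembl canonical transcript, averaged over the 12 libraries. The highest were MRPL37 at 77.5, MRPS15 at 64.2, MRPL3 at 59.9, MRPS30 at 57.7 and MRPL20 at 55.4 CPM per kilobase. MRPL3, MRPL20 and MRPS15 have bacterial homologs, while MRPL37 and MRPS30 are specific to mitochondria. In structures of the ribosome, MRPS30 sits in the large subunit in spite of its symbol. The lowest were MRPL38 at 0.492, MRPS24 at 0.623, MRPL46 at 1.77, MRPS17 at 2.38 and MRPS25 at 3.43 CPM per kilobase. MRPS25 had this place through SK-LMS-1, with 8 of the 12 libraries, where it was at 1.99 CPM per kilobase, and MRPL38, MRPS24, MRPL46 and MRPS17 were among the 5 lowest in each line. The proteins of all these genes are structural parts of the same particle, so these low values were set against the gene models.

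Several of the lowest genes shared most of their exon bases with another gene of the table on the same strand, where reads can be split between genes or discarded. In the GENCODE 44 annotation, MRPL38 shared 94.3% of its canonical exon bases, MRPS24 shared 90.9% (with the read-through gene URGCP-MRPS24), MRPL46 73.4%, MRPL12 69.5%, MRPS28 56.2% and MRPL2 52.1%. These 6 genes had a median of 3.36 CPM per kilobase, from 0.492 to 9.17. The other 71 had a median of 21.9, from 2.38 to 77.5. The gene not kept, MRPL53, shared 99.2% of its exon bases with CCDC142 and had 0 counts in all 12 libraries. Its level and those of the 6 genes are therefore uncertain. MRPS17 shared 29.4% and MRPS25 shared 0%, so sharing did not accompany every low value.

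Counts of 0 in single libraries occurred only in MRPS24 and MRPL38 among the kept genes. In SK-LMS-1, MRPS24 had 5, 8, 0 and 40 counts after DMSO, 55 and 0 with MK-0752 and 17 and 24 with the combination, and in SK-UT-1B it had 0 and 18 after DMSO and none after the combination. MRPL38 had 1, 18, 0 and 40 counts in SK-LMS-1 and 8 and 36 in SK-UT-1B after DMSO. After DMSO, libraries of the same line overlapped those of the other in both genes, so no direction is read there. After the combination the lines did not overlap in MRPS24. Its mean level in SK-LMS-1 was 7.02 times the floor of 3 counts in SK-UT-1B, and the difference missed the threshold (edgeR adjusted p = 0.174). Counts of 0 also stood beside 18, 40 or 55 counts within other groups, so no minimum fold is read from this.

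**Figure D2:**
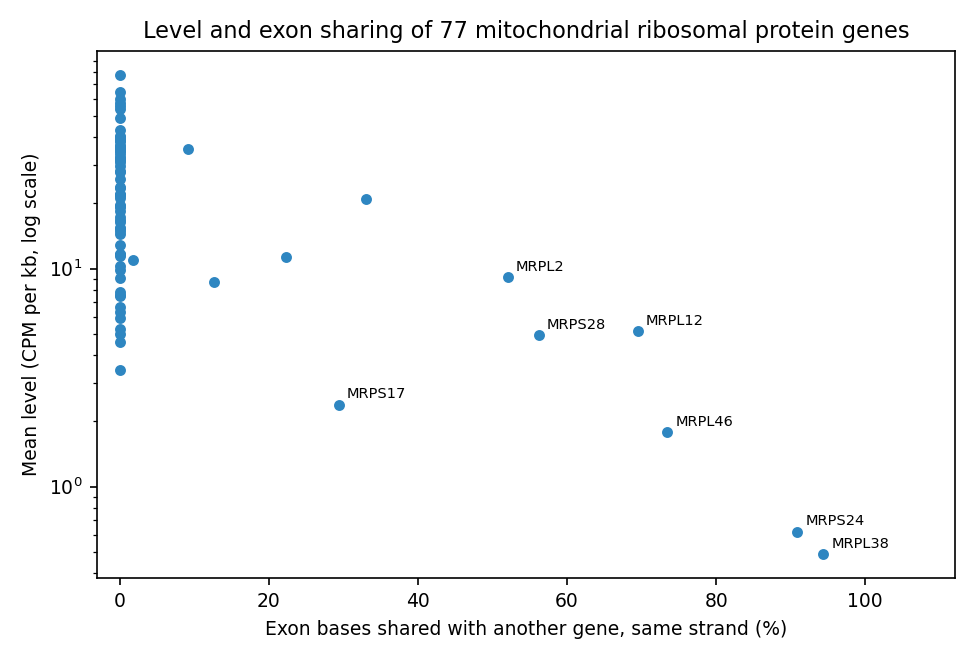
Mean level over the 12 libraries (y axis, CPM per kilobase, log scale) against the percent of canonical exon bases shared with another gene on the same strand (x axis); each point is 1 of the 77 genes. The 6 genes at 50% or more lie at or below 9.17 CPM per kilobase.

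The comparison of SK-LMS-1 with SK-UT-1B after DMSO asked how the lines differ without drug. A gene was called higher or lower at a Benjamini-Hochberg adjusted p under 0.05 over all 21114 genes in edgeR's quasi-likelihood test, and differentially expressed where its log2FC was also at least 1 in size. Of the 77 genes, 8 were higher in SK-LMS-1 (10.4%) and 20 were lower (26.0%), beside 21.5% and 19.5% of all genes tested. Differential expression was called for 2 higher and 9 lower members, beside 17.0% and 14.1% of all genes. The median log2FC of the 77 genes was -0.34, beside 0.00 over all genes, with 19 genes positive and 58 negative. In 10 genes every SK-LMS-1 DMSO library was above both SK-UT-1B libraries and in 31 genes every one was below, beside 25.3% and 26.6% of all genes.

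These counts depended on the scaling. With total counts and no TMM factor, all log2FC moved by a median of -0.21, and 4 members were higher and 33 lower. The calls over all genes then went from 4533 higher and 4118 lower to 3949 higher and 4962 lower. The median of the 77 genes was -0.55 on that scale.

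**Figure D3:**
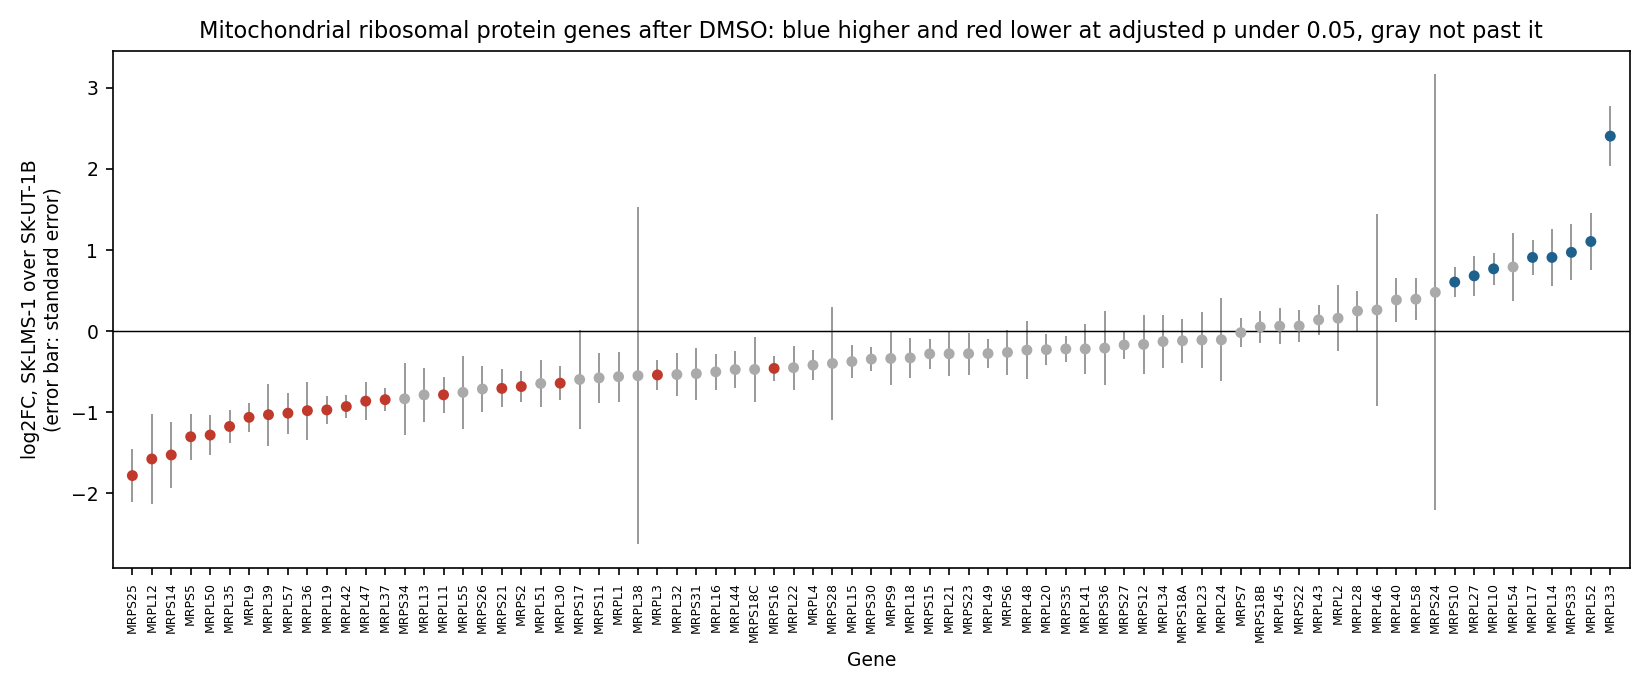
log2FC of SK-LMS-1 over SK-UT-1B after DMSO (y axis) for each of the 77 genes (x axis, in order of log2FC); error bars are standard errors, blue and red mark adjusted p under 0.05. The points run from -1.78 for MRPS25 to 2.40 for MRPL33, with 58 of 77 below 0.

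The gene furthest above the others in SK-LMS-1 was MRPL33, which encodes a small large-subunit protein with a bacterial homolog (ENSG00000243147.8, chr2:27771717-27988087, plus strand, hg38). Its level in SK-LMS-1 after DMSO was 24.1, 29.3, 23.2 and 26.6 CPM, given here and below as set 2 replicates 1 and 3 and then set 4 replicates 1 and 2. It was 2.87 and 6.82 CPM in SK-UT-1B DMSO replicates 1 and 2. Every SK-LMS-1 library was above both SK-UT-1B libraries, and the log2FC was 2.40 (SE 0.37, edgeR adjusted p = 2.28e-05), a 5.29-fold difference. Without SK-UT-1B DMSO replicate 1 the log2FC was 1.87, and without replicate 2 it was 3.16. The treated libraries kept the same order, with 17.3 to 30.8 CPM in the 4 treated SK-LMS-1 libraries, against 4.07 and 4.51 CPM in the treated SK-UT-1B libraries.

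Of the other 7 genes higher in SK-LMS-1, MRPL52 encodes a large-subunit protein specific to mitochondria. It measured 14.4, 24.2, 14.9 and 24.7 CPM in SK-LMS-1 and 7.37 and 10.8 CPM in SK-UT-1B (log2FC 1.10, SE 0.35, edgeR adjusted p = 0.0143). MRPL17, a large-subunit protein with a bacterial homolog, measured 46.8, 59.0, 41.4 and 53.3 CPM against 23.6 and 29.7 CPM (log2FC 0.91, SE 0.21, edgeR adjusted p = 0.00156). The groups did not overlap in either gene. MRPL10, which anchors the stalk that recruits translation factors, had a log2FC of 0.77 and the small-subunit genes MRPS33 and MRPS10 had 0.97 and 0.61. MRPL27, whose bacterial homolog lies near the peptidyl transferase center, had 0.68. Apart from that of MRPL33, each of these calls was lost without at least 1 library, although every log2FC stayed positive, from 0.37 for MRPS10 to 1.41 for MRPL52. With all libraries, the MRPL27 call was lost with no filter beyond 1 count, the replicate block or total counts (edgeR adjusted p = 0.0711, 0.0768 and 0.136). Those of MRPS33 and MRPS10 were lost with total counts (edgeR adjusted p = 0.0936 and 0.0878). Without SK-UT-1B DMSO replicate 1, MRPL52 (edgeR adjusted p = 0.190), MRPL17 (0.0623), MRPS10 (0.354) and MRPL27 (0.327) missed the threshold, and without its replicate 2, MRPL10 (0.0972), MRPS33 (0.148) and MRPL27 (0.128) did. Without SK-LMS-1 libraries, MRPL52 missed it when set 2 replicate 3 (0.0786) or set 4 replicate 2 (0.0620) was left out, MRPS10 when set 2 replicate 1 was (0.0528), and MRPL27 when any of the 4 was (0.0784 to 0.195).

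MRPL14, a large-subunit protein with a bacterial homolog, had a log2FC of 0.91 (SE 0.35, edgeR adjusted p = 0.0456) that followed 1 library. Its level was 14.2, 13.4, 44.4 and 23.0 CPM in SK-LMS-1 and 10.3 and 12.7 CPM in SK-UT-1B. Without DMSO set 4 replicate 1 the log2FC was 0.60 (edgeR adjusted p = 0.219), and without set 2 replicate 1 or either SK-UT-1B DMSO library it also missed the threshold. With all libraries it missed it in DESeq2 (adjusted p = 0.0603), with the DESeq2 size factors, the filter at a mean of 50 counts, the replicate block or total counts in edgeR (adjusted p from 0.0520 to 0.114). The number of genes higher in SK-LMS-1 fell to 5 without set 2 replicate 1 (beside 18.1% of all genes in that fit), to 3 without SK-UT-1B DMSO replicate 1 (15.6%) and to 4 without replicate 2 (17.0%). Without set 2 replicate 3, only MRPL33 of the higher genes remained differentially expressed.

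Genes lower in SK-LMS-1 came from both subunits. MRPS25, a small-subunit protein specific to mitochondria (ENSG00000131368.8, chr3:15009611-15065339, minus strand, hg38), had the lowest log2FC. It measured 5.36, 8.48, 17.4 and 9.20 CPM in SK-LMS-1 and 35.9 and 29.8 CPM in SK-UT-1B. All SK-LMS-1 libraries were below both SK-UT-1B libraries, and the log2FC was -1.78 (SE 0.33, edgeR adjusted p = 0.000179), a 3.44-fold difference.

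MRPL50, a large-subunit protein specific to mitochondria (ENSG00000136897.8, chr9:101387633-101398618, minus strand, hg38), measured 16.8, 31.0, 14.3 and 22.6 CPM in SK-LMS-1 and 55.5 and 46.7 CPM in SK-UT-1B. The log2FC was -1.28 (SE 0.25, edgeR adjusted p = 0.000321). MRPS5, a small-subunit protein with a bacterial homolog, measured 15.1, 24.8, 12.3 and 20.7 CPM against 38.7 and 50.7 CPM (log2FC -1.30, SE 0.28, edgeR adjusted p = 0.000874). MRPL35 and MRPL9 are large-subunit proteins with bacterial homologs. MRPL35 measured 25.9, 22.2, 28.3 and 28.9 CPM against 59.0 and 59.4 CPM, a log2FC of -1.17. MRPL9 measured 32.1, 36.9, 32.5 and 32.2 CPM against 72.6 and 66.9 CPM, a log2FC of -1.06. In these genes too, no library of either line entered the range of the other.

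MRPS14, a small-subunit protein with a bacterial homolog, measured 5.59, 5.07, 8.32 and 8.47 CPM in SK-LMS-1 and 15.5 and 23.0 CPM in SK-UT-1B (log2FC -1.53, SE 0.41, edgeR adjusted p = 0.00517). Without SK-UT-1B DMSO replicate 2 it missed the threshold (edgeR adjusted p = 0.106), with a log2FC of -1.21. MRPL39, specific to mitochondria, had -1.03 and also missed it without that library (edgeR adjusted p = 0.0603) or without DMSO set 4 replicate 1 (0.0568). MRPL12, the stalk protein carried by MRPL10, had -1.58 (SE 0.56, edgeR adjusted p = 0.0287), on levels of 2.36 to 3.73 CPM against 8.69 and 9.31 CPM. It shares 69.5% of its exon bases with another gene, and it missed the threshold when any of 5 DMSO libraries was left out, the exception being set 4 replicate 1 (edgeR adjusted p from 0.0514 to 0.165), while its log2FC stayed between -1.70 and -1.52. With all libraries, MRPL12 also missed the threshold with the replicate block (edgeR adjusted p = 0.0747). The remaining 12 lower genes ran from -1.01 (MRPL57) to -0.46 (MRPS16). They included MRPL37 (-0.84) and MRPL3 (-0.54), both among the genes with the highest levels per kilobase. MRPL3, MRPL30, MRPL36, MRPL57, MRPS16 and MRPS21 of these 12 missed the threshold without at least 1 library.

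**Figure D4:**
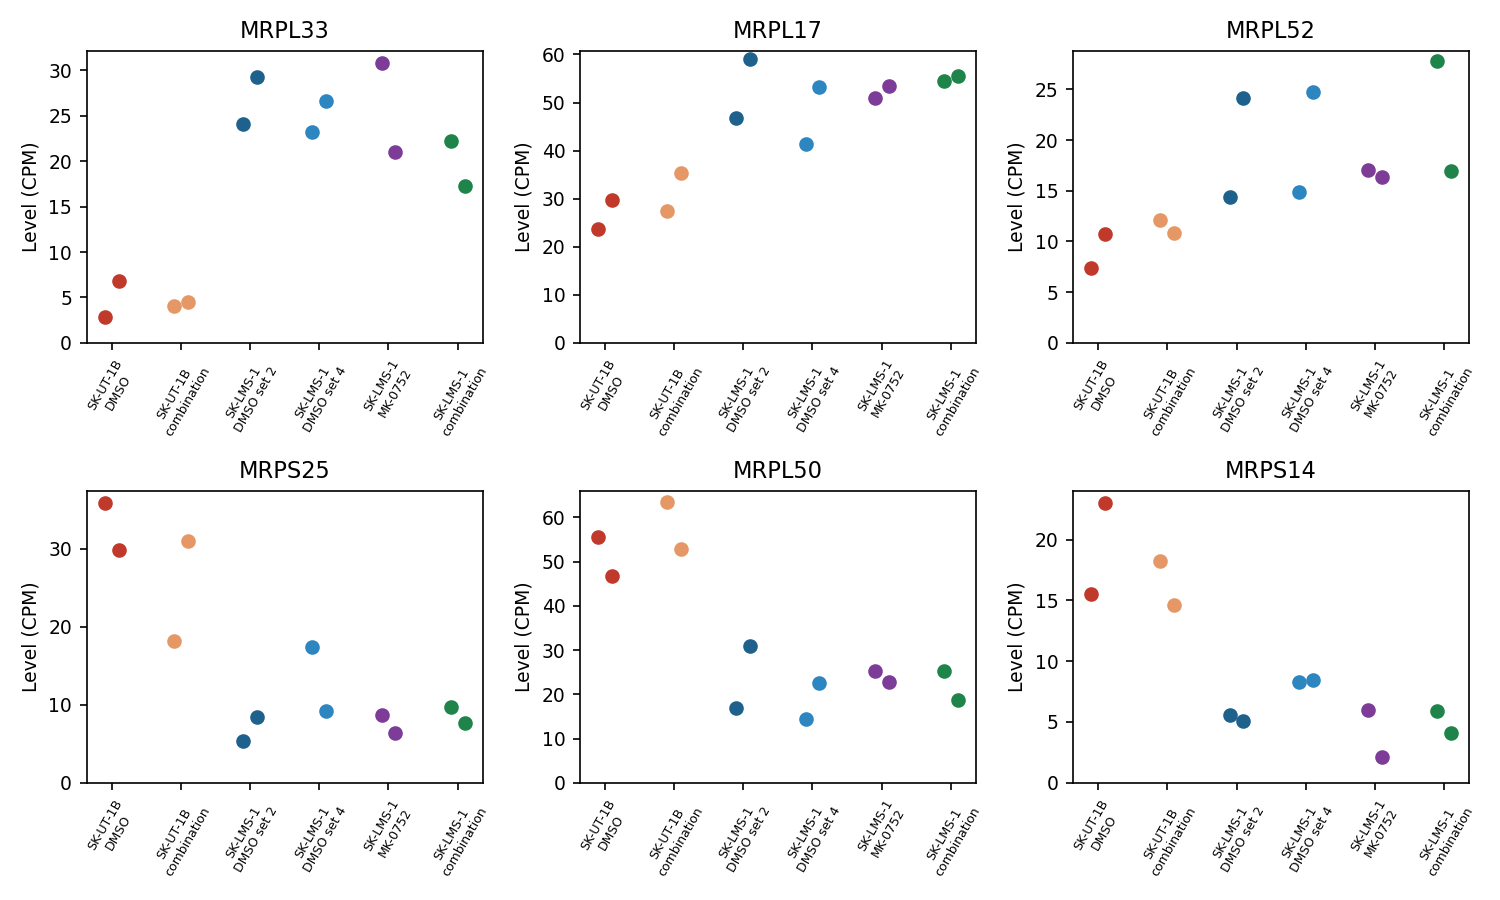
Level in CPM (y axis, from 0) of MRPL33, MRPL17, MRPL52, MRPS25, MRPL50 and MRPS14 in the 6 groups (x axis); each point is 1 library. MRPL33 is at 17.3 CPM or more in all SK-LMS-1 libraries and at 6.82 CPM or less in all SK-UT-1B libraries, and MRPS25, MRPL50 and MRPS14 are in the opposite order.

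By origin, 46 of the 77 genes were listed as homologs of bacterial ribosomal proteins and 30 as specific to mitochondria. MRPS36 was in neither list and is counted here by its symbol alone. Of the bacterial homologs, SK-LMS-1 had 6 higher (13%) and 14 lower (30.4%), beside the 21.5% and 19.5% of all genes, with a median log2FC of -0.43. Of those specific to mitochondria, 2 were higher (6.67%) and 6 lower (20.0%), with a median of -0.25. By symbol, 6 MRPL genes were higher (12.5%) and 14 lower (29.2%), with a median of -0.40, and 2 MRPS genes were higher (6.9%) and 6 lower (20.7%), with a median of -0.34. Both directions thus occurred in each class.

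The paralogs MRPS18A, MRPS18B and MRPS18C descend from 1 bacterial protein, and each ribosome has a separate place for each. Only MRPS18C was listed above with the bacterial homologs, since the places of MRPS18A and MRPS18B are not found in the bacterial ribosome. None of the 3 passed the test between the lines after DMSO. MRPS18B had the highest level per length, at 36.0 CPM per kilobase, against 21.7 for MRPS18A and 6.70 for MRPS18C. MRPS18B measured 60.9, 54.3, 50.6 and 50.6 CPM in SK-LMS-1 DMSO and 64.3 and 39.9 CPM in SK-UT-1B DMSO, so the groups overlapped. After the combination it measured 55.7 and 50.2 CPM in SK-LMS-1 and 35.6 and 33.2 CPM in SK-UT-1B (log2FC 0.62, SE 0.23, edgeR adjusted p = 0.0454). That call was lost when any 1 of the 4 combination libraries was left out, with an edgeR adjusted p of 0.0737 or more. With all 4 it was lost in DESeq2 (adjusted p = 0.0676), with the DESeq2 size factors, no filter beyond 1 count, only the libraries of the comparison or total counts in edgeR (adjusted p from 0.0515 to 0.323).

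After the combination, where the first library number also differed between the lines, 5 of the 77 genes were higher in SK-LMS-1 (beside 19.3% of all genes tested) and 10 were lower (beside 13.6%). Differential expression was called for 1 higher and 6 lower genes, beside 15.6% and 9.88%. The median log2FC was -0.18, beside 0.02 over all genes, but its direction rested on 1 library. Without SK-UT-1B combination replicate 3 it was 0.02, beside 0.00 over all genes. In 16 genes both SK-LMS-1 libraries were above both SK-UT-1B libraries and in 29 below, beside 34.6% and 30% of all genes. With total counts, all log2FC moved by a median of -0.30, and 1 member was higher and 19 lower, beside 15.7% and 19.1% of all genes on that scale, with a member median of -0.49. Leaving out single libraries moved the higher count between 1 and 5 and the lower count between 4 and 11. The counts fell to 1 higher and 6 lower without SK-LMS-1 combination replicate 1 (beside 14.5% and 9.57% of all genes in that fit), and to 2 higher and 4 lower without replicate 2 (14.8% and 8.60%).

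In both line comparisons, MRPL17, MRPL27, MRPL33 and MRPS10 were called higher and MRPL19, MRPL35, MRPL42, MRPL50, MRPS2, MRPS14 and MRPS25 were called lower, and no gene was called in opposite directions. The share of all genes called in both comparisons is not given, so this overlap is a description only. MRPL33 had a log2FC of 2.20 after the combination (SE 0.40, edgeR adjusted p = 0.000176) and MRPL50 had -1.41 (SE 0.31, edgeR adjusted p = 0.00114), and both kept the call whichever library was left out. Without SK-LMS-1 combination replicate 1, the calls of MRPL17, MRPL27, MRPS10, MRPL19, MRPL35 and MRPL42 after the combination were lost (edgeR adjusted p from 0.0715 to 0.395), and without its replicate 2 those of MRPL17, MRPL27, MRPL19, MRPL35, MRPL42, MRPS14 and MRPS25 were (0.0539 to 0.467). Leaving out SK-UT-1B combination replicate 1 ended those of MRPL17 and MRPL27 (0.119 and 0.181), and leaving out its replicate 3 those of MRPL27, MRPL35, MRPL42 and MRPS25 (0.0750 to 0.193). With all 4 combination libraries, MRPL27 also missed the threshold with no filter beyond 1 count, the replicate block, only the libraries of the comparison or total counts (edgeR adjusted p from 0.0545 to 0.169). MRPL35 missed it with the block or only those libraries (0.0710 and 0.0711), and MRPL17 and MRPS10 with total counts (0.104 and 0.102). Among genes called only after the combination, the large-subunit proteins MRPL16 and MRPL44 stood out by size. MRPL16, with a bacterial homolog, measured 27.5 and 18.5 CPM in SK-LMS-1 and 61.4 and 55.0 CPM in SK-UT-1B (log2FC -1.34, SE 0.26, edgeR adjusted p = 0.000458). After DMSO it measured 22.9 to 32.4 CPM against 40.9 and 41.5 CPM, a log2FC of -0.50 that missed the threshold (it passed at -0.68 without set 2 replicate 1, edgeR adjusted p = 0.0400). MRPL44, specific to mitochondria, measured 23.6 and 24.6 CPM against 66.9 and 47.0 CPM, a log2FC of -1.24. After DMSO it passed without set 4 replicate 2 (-0.65, edgeR adjusted p = 0.0424). MRPS30 had -0.64, a call lost without either SK-LMS-1 combination library (edgeR adjusted p = 0.132 and 0.0567). Of the genes lower in both comparisons, MRPS2, a small-subunit protein with a bacterial homolog, had -1.03 after the combination. Whether these differences changed with treatment is given by the test of the difference between the lines' responses, below.

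No member passed the test in any drug comparison. In SK-UT-1B, the combination left 0 higher and 0 lower members in edgeR's quasi-likelihood test and in DESeq2. Of all genes, 0.464% and 0.251% were called in edgeR (0.393% and 0.166% as differentially expressed) and 1.52% and 1.26% in DESeq2. At an unadjusted p under 0.05 there were 8 members (10.4%), beside 10.5% of all genes. The median log2FC was -0.23, beside 0.00 over all genes, with 19 positive and 58 negative. Without SK-UT-1B DMSO replicate 2 the median was -0.13. In 9 genes both combination libraries were above both DMSO libraries and in 23 below, beside 16.7% and 15.4% of all genes. Because MRPS24 was at 0 in both combination libraries, no fold is given for it.

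The member with the lowest p in SK-UT-1B was MRPL48, a large-subunit protein specific to mitochondria. It measured 14.68 and 11.99 CPM after DMSO and 5.36 and 5.61 CPM after the combination. The groups did not overlap, but the log2FC of -1.28 (SE 0.42) had an edgeR adjusted p of 0.204. At the other end, MRPL46 (1.11, SE 1.36) and MRPL38 (1.07, SE 2.47) had positive values smaller than their standard errors, and both share most of their exon bases. With single libraries left out, MRPL46 ran from 0.50 to 2.13. Without SK-UT-1B combination replicate 3, 2 members passed the test as lower, MRPL3 and MRPL32, beside 3.77% of all genes in that fit.

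In SK-LMS-1, MK-0752 left 0 higher and 0 lower members in edgeR and in DESeq2. Of all genes, 0.0853% and 0.279% were called in edgeR and 0.35% and 0.691% in DESeq2. In edgeR, 1 member (1.3%) had an unadjusted p under 0.05, beside 6.41% of all genes. As differentially expressed, 0.0568% and 0.194% of all genes were called. The median log2FC of the members was 0.08, and it was 0.01 without DMSO set 2 replicate 1 or MK-0752 replicate 2 and 0.13 without DMSO set 2 replicate 3. Both MK-0752 libraries were above both DMSO libraries in 14 members and below them in 8, beside 16.9% and 17.5% of all genes. The member past an unadjusted p of 0.05 was MRPS7, a small-subunit protein with a bacterial homolog, at 58.7 and 57.1 CPM after DMSO and 42.3 and 33.1 CPM after MK-0752 (log2FC -0.62, SE 0.21, edgeR adjusted p = 0.410). MRPL58, a large-subunit protein that can also release stalled peptides, had -0.40 (SE 0.29), and the positive values furthest from 0 were those of MRPS24 and MRPL38, the genes with 0 counts in some libraries.

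The combination in SK-LMS-1 left 0 higher and 0 lower members in edgeR and in DESeq2. Of all genes, 0.0142% and 0.00947% were called in edgeR and 0.128% and 0.0568% in DESeq2. In edgeR, 2 members (2.6%) had an unadjusted p under 0.05, beside 4.33% of all genes. The median log2FC was -0.01, and it ran from -0.05 without combination replicate 1 to 0.02 without DMSO set 4 replicate 2. Both combination libraries were above both DMSO libraries in 12 members and below them in 18, beside 21.0% and 11.4% of all genes. MRPL36, a large-subunit protein with a bacterial homolog, measured 5.44 and 7.33 CPM after DMSO and 14.1 and 9.85 CPM with the drugs (log2FC 0.90, SE 0.43, edgeR adjusted p = 0.907). MRPL14 had -0.99 (SE 0.39, edgeR adjusted p = 0.907), on the same DMSO set 4 libraries that stood at 44.4 and 23.0 CPM, with 18.2 and 15.8 CPM in the treated ones. MRPL12 (0.57, SE 0.67) and MRPL46 (-1.42, SE 1.38) had standard errors as large as their values or nearly so. With single libraries left out, MRPL36 ran from 0.63 to 1.16, MRPL14 from -1.36 to -0.44 and MRPL46 from -2.54 to -0.64.

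The response to the combination was compared between the lines, and that to MK-0752 with that to the combination within SK-LMS-1. The MK-0752 dose differed between the sides of both comparisons. Neither test of the difference called a member in the main edgeR fit or in DESeq2. Of all genes, edgeR called 0.147% higher and 0.0853% lower between the lines, and 0.00474% and 0.0332% between the drugs. The DESeq2 shares were 0.403% and 0.355% between the lines and 0.071% and 0.171% between the drugs. At an unadjusted p under 0.05 there were 5 members between the lines (6.49%, beside 7.67% of all genes) and 1 between the drugs (1.3%, beside 5.18%). Leaving aside MRPS24, whose fitted value rests on a group at 0, the most extreme values between the lines were those of MRPL46 (2.54, SE 1.93) and MRPS18C (-1.21, SE 0.67), which ran from 1.73 to 3.63 and from -1.82 to -0.77 with single libraries left out. Between the drugs they were those of MRPL46 (2.24, SE 1.93) and MRPS18A (-0.69, SE 0.45), which ran from 1.16 to 3.35 and from -1.22 to -0.30. Without SK-UT-1B combination replicate 3, 2 members passed as lower between the lines (MRPL3 and MRPL32, beside 2.37% of all genes in that fit), and MRPL24 did without SK-LMS-1 DMSO set 4 replicate 1 (beside 0.889%). Between the drugs, MRPL14 passed as higher without set 4 replicate 2 (beside 0.253%).

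The DMSO sets of SK-LMS-1 gave the size of a difference without a drug. No member and none of the 21114 genes tested passed between them in the main edgeR fit. At an unadjusted p under 0.05 there were 3 members (3.9%), beside 5.67% of all genes. No member passed in DESeq2, beside 0.0521% of all genes higher and 0.0995% lower. In edgeR with no filter beyond 1 count these shares were 0.14% and 0.15%, and with the replicate block 0.0142% and 0.00947%, again with no member. Both set 4 libraries were above both set 2 libraries in 16 members and below them in 14, beside 12% and 17.5% of all genes. MRPL14 was furthest apart (log2FC 1.29 for set 4 over set 2, SE 0.40, edgeR adjusted p = 0.794), followed at the other end by MRPL47 (-0.51) and MRPL43 (-0.49). With single libraries left out, MRPL14 ran from 0.74 to 1.67, MRPL47 from -0.86 to -0.24 and MRPL43 from -0.62 to -0.39. Without set 4 replicate 2, 2 members passed as higher (beside 0.486% of all genes in that fit), MRPL14 among them with a log2FC of 1.67 (edgeR adjusted p = 0.0153). Set 4 was then the 1 library at 44.4 CPM, taken to vary as the other groups did. Within a group, the median absolute log2 ratio of its 2 libraries ran from 0.23 to 0.39 over the members, beside 0.24 to 0.46 over all genes tested.

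**Figure D5:**
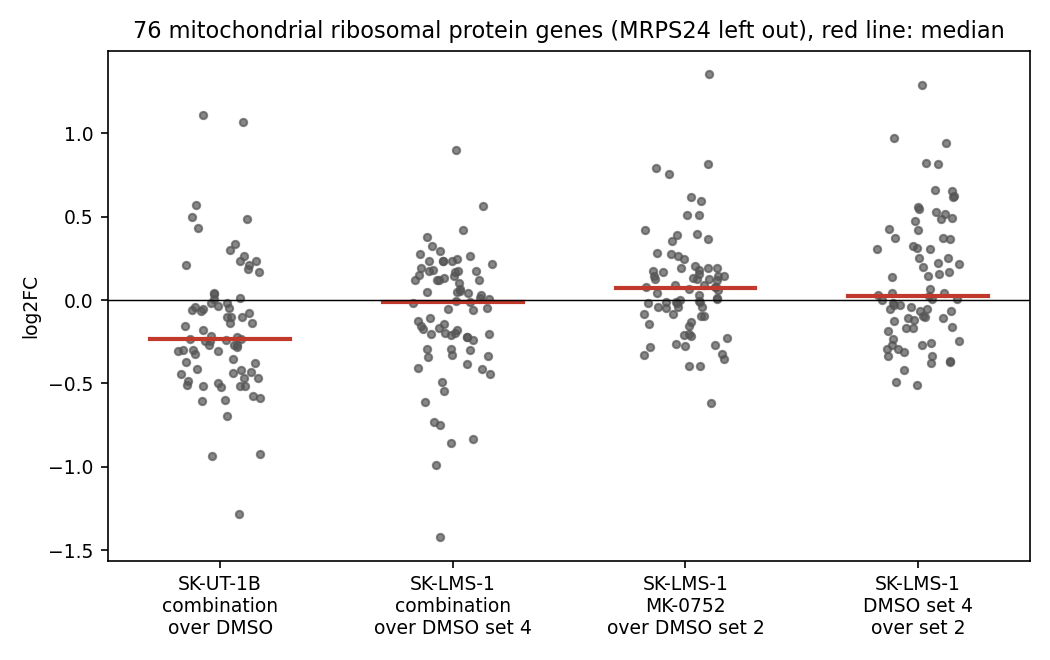
log2FC (y axis) of 76 genes in 3 drug comparisons and between the DMSO sets (x axis); points are genes, spread sideways at random, and red lines are medians. The median is below 0 in SK-UT-1B and near 0 in the SK-LMS-1 comparisons, and no point passed an adjusted p of 0.05; MRPS24 is left out because a group was at 0.

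Genes that work with the mitochondrial ribosome were counted in the same comparison of the lines after DMSO, and each list's share is to be read beside the 21.5% of all genes that were higher and the 19.5% that were lower. All 13 mitochondrially encoded mRNAs, which this ribosome translates, had negative log2FC, and 12 passed the test as lower in SK-LMS-1, with a median of -0.97. After DMSO, their sum was 24401 to 26485 CPM in SK-LMS-1 and 53183 and 42393 CPM in SK-UT-1B. MT-ND1 and MT-ND2, subunits of complex I, had -1.57 and -1.20, and MT-CO3, a subunit of cytochrome c oxidase, had -1.16. The mitochondrially encoded ribosomal RNAs, MT-RNR1 and MT-RNR2, had positive values of 0.64 and 0.59 that did not pass, in libraries depleted of ribosomal RNA, from whose data the authors also removed reads detected as ribosomal RNA. They summed to 175, 143, 736 and 78.8 CPM in SK-LMS-1 and to 121 and 212 CPM in SK-UT-1B, so the lines overlapped. The cytosolic ribosomal protein genes, chosen by symbol, had the other sign, with 45 higher (52.9%) and 4 lower (4.71%) of 85 tested and a median of 0.46. After the combination, 9 of the 13 mRNAs were lower in SK-LMS-1, beside 13.6% of all genes. Their sum was then 25157 and 24641 CPM in SK-LMS-1 and 30242 and 48891 CPM in SK-UT-1B. The lower SK-UT-1B library was below the 31833 CPM of SK-LMS-1 MK-0752 replicate 3. The lists were not recomputed under other scalings or with libraries left out.

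Of 30 factors of ribosome assembly and mitochondrial RNA handling, 4 were higher (13.3%) and 8 lower (26.7%). The RNA helicase DDX28 had -1.86, the assembly GTPase ERAL1 had -1.54 and LRPPRC, which stabilizes mitochondrial mRNAs, had -1.25. On the other side, the methyltransferase METTL15 had 1.46, the assembly GTPase GTPBP10 had 1.43 and NGRN had 0.79. Of 16 translation factors tested, 1 was higher (6.25%), which was MRRF, the ribosome recycling factor (0.89), and 4 were lower (25%), led among the called genes by the elongation factor TUFM (-0.87), MTFMT (-0.70), which makes formylmethionyl-tRNA, and the elongation factor GFM1 (-0.53).

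Of 22 mitochondrial aminoacyl-tRNA synthetase and related genes, 3 were higher (13.6%) and 9 lower (40.9%). Among the called genes, MARS2 (-2.33), EARS2 (-1.55) and CARS2 (-1.47) were the lowest, and RARS2 (1.02), FARS2 (0.83) and GATC (0.65) the highest. Of 6 genes of mitochondrial transcription, 0 were higher and 3 lower (50%), namely MTERF2 (-2.06), TFB2M (-1.32) and TFAM (-0.81). Between the lines after the combination, 0 of these 6 were higher and 0 lower, beside 19.3% and 13.6% of all genes. Of 4 small-subunit proteins that carry other symbols, PTCD3 was lower (-1.01), and the large-subunit protein GADD45GIP1 did not pass (-0.12).

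Of 11 nuclear regulators of mitochondrial genes, 7 were lower in SK-LMS-1 (63.6%) and 0 were higher. PPARGC1A, a coactivator known for driving mitochondrial biogenesis, measured 121 ± 2.93 CPM in SK-UT-1B DMSO (SD, n = 2) and 0.152 ± 0.304 CPM in SK-LMS-1 DMSO (SD, n = 4), and it was at 0 in 6 of the 12 libraries (edgeR adjusted p = 0.00379). Its relative PPARGC1B had -3.69 and MYC had -1.33. GABPA, the ETS factor also called NRF2 alpha, and SP1 were lower by less (-0.63 and -0.59). YY1 (0.12) and NRF1 (-0.61) did not pass. After the combination in SK-UT-1B, none of the genes on these lists passed the test.

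Promoter windows of RefSeq (GRCh38.p14, 250 bases before to 50 after the start) were found for 68 of the 77 genes and searched on both strands for the letters of motifs known from such promoters. AAGATGG, the core of a YY1 motif, was in 23 of 68 windows (33.8%), beside 6.96% of 11723 windows of tested coding genes. CCGGAA, the core of ETS motifs such as that of GABPA, was in 38 (55.9%), beside 27.4%. GCATGCG, the core of an NRF1 motif, was in 7 (10.3%), beside 5.95%. This last order depends on the letters, since a longer form of the NRF1 motif, searched first, was in a smaller share of the members than of the coding genes. CACGTG, an E-box, was in 6 (8.82%), beside 9.69%, and TATAAA was in 2 (2.94%), beside 6.64%. No motif of the search contains another. Of the genes higher in SK-LMS-1 after DMSO, the YY1 letters were in 2 of 7 windows and the ETS letters in 6 of 7. Of the lower genes they were in 6 of 19 and 8 of 19. A match is a description of the letters, and binding was not measured.

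The windows below show the letters, in capitals, in genes on both sides of the line comparison. Each is 30 bases, read 5′ to 3′ on the strand of the gene. MRPL50 (chr9:101398578-101398607, minus strand) and MRPL42 (chr12:93467510-93467539, plus strand) were lower in SK-LMS-1, and MRPL52 (chr14:22829777-22829806, plus strand) and MRPS10 (chr6:42217835-42217864, minus strand) were higher, and all carry the YY1 letters. MRPL33 (chr2:27771699-27771728, plus strand) and MRPL27 (chr17:50373175-50373204, minus strand) were higher and carry the ETS letters. MRPL17 (chr11:6683402-6683431, minus strand) was higher and carries the NRF1 letters.
MRPL50: tggatctcatcgAAGATGGcggcgcgatct
MRPL42: caggattgaaacAAGATGGcgggttcgtgg
MRPL52: gtacgatgacccAAGATGGcggagccgtga
MRPS10: gtcgggaccggcAAGATGGcggcgcggaca
MRPL33: ccgggccgtgccCCGGAAgcagttgttgtt
MRPL27: aacttttcgagaCCGGAAgtgagtgatcga
MRPL17: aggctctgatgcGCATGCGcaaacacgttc

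Many of the genes start next to another gene. A protein-coding gene on the other strand starts within 1000 bases upstream of the start, or less than 100 bases inside it, in 18 of the 77 genes (23.4%), beside 9.06% of 20033 coding genes of the annotation. The coding genes of the annotation include genes that were not tested here, while all 77 members were tested, so the 2 sets are unlike. In MRPL13 the neighbor MTBP starts just inside the gene, and in the others it starts upstream. MRPL46 and MRPS11 are each other's neighbor, and of the 16 different pairs with both genes tested, 11 had log2FC of the same sign between the lines after DMSO. In 8 pairs the member passed the test, and in 3 of these the neighbor passed in the same direction. These were MRPL50 with ZNF189 (-1.85), MRPL57 with SKA3 (-1.33) and MRPL10 with LRRC46 (3.62, edgeR adjusted p = 0.04995). Of all genes tested, 21.5% were higher and 19.5% lower in this comparison. No such counts are given for pairs of other genes, so those of the members are a description only. In 1 pair, MRPL47 at -0.86 with NDUFB5 at 0.81, a subunit gene of complex I, the directions were opposite although the starts are 41 bases apart.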

How the data were processed

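Total RNA of 12 libraries (6 groups of 2) was sequenced by the authors after depletion of ribosomal RNA with a stranded kit. Per the labels, the submitters' processing notes name Trim Galore 0.3.7, STAR 2.7.9a, DESeq2 1.42.0 and hg38. The authors also removed reads detected as ribosomal RNA with SortMeRNA. The authors deposited raw read counts per gene, with no normalization. The annotation version, strand setting and treatment of duplicates and shared reads are not given in the sources used here. Reads carry no molecular identifiers, so precision from depth covers counting error only.

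All genes were fitted together in edgeR 4.0.16 (R 4.3.3), with filterByExpr, TMM scaling, robust quasi-likelihood and the 6 groups as the only term, and p-values were adjusted over 21114 genes. SE is the log2FC divided by the root of the F statistic. The script was tested on simulated counts. It kept the nominal share of false calls when dispersions followed the trend and exceeded it when each gene kept its own estimate. DESeq2 1.42.0, other scalings and filters, a replicate block and single left-out libraries were the alternatives, and scaling by total counts was added after seeing the data. Where leaving out a library left 1 in its group, that library was assumed to vary like those of the other groups, and the filter then kept 24346 to 24756 genes. Genes were named by rule. In each line comparison these were up to 8 called members a direction. Elsewhere they were called members or, with none, the 2 most extreme a direction. The 5 highest and 5 lowest levels, members with 0 counts, the MRPS18 paralogs and up to 3 called genes a direction of other lists were also named, and further members were chosen after their values were seen. The members and lists were chosen with earlier results of these data known. The letters of the YY1 and NRF1 motifs were shortened after longer forms had been searched.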

Additional observations from a re-analysis of the deposited data

How the results depend on the processing

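The 29 calls of named members in the line comparisons were recomputed under each alternative and left-out library, 351 values in all. Of these, 281 stayed past the threshold, 70 missed it and 0 changed sign, and 11 of the 29 calls were kept in every one, those of MRPL33, MRPL50 and 4 others after DMSO among them. With total counts and no TMM factor, the line comparison after DMSO had 4 higher and 33 lower members, of which 1 and 14 were differentially expressed (beside 14.8% and 17.3% of all genes), and that after the combination had 1 higher and 19 lower. With no filter beyond 1 count, and with only the libraries of the comparison, 3 members were higher after the combination (beside 13.5% and 22.3% of all genes in these fits). With only those libraries, MRPL14 was higher in the difference between the drugs (beside 0.0693%). As a share of all counts, the summed level of SK-UT-1B over SK-LMS-1 after DMSO was 1.51 (1.55 of counts on nuclear protein-coding genes), that of the SK-UT-1B combination over DMSO 0.915, and that of the SK-LMS-1 combination over DMSO 0.973 (0.971).

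Leaving out single libraries moved the members higher after DMSO between 3 and 6 and lower between 14 and 24, with 1 to 3 and 6 to 13 differentially expressed (beside 15.6% to 18.7%, 14.6% to 17.8%, 13.2% to 15.0% and 11.6% to 13.5% of all genes). After the combination, the ranges were 1 to 5 higher, 4 to 11 lower, and 1 to 3 and 4 to 6 differentially expressed (beside 14.5% to 16.1%, 8.60% to 12%, 12.7% to 13.5% and 7.38% to 9.15%). In SK-UT-1B after the combination, 0 to 2 members were lower, in the difference between the lines 0 to 2 lower, in that between the drugs 0 to 1 higher, and between the DMSO sets 0 to 2 higher.

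Among named members, the values that changed sign were those of MRPL38, MRPS24 and, in 1 case, MRPL12, and none was past a threshold. With single libraries left out, the members' median changed sign between the lines after the combination (-0.24 to 0.02), in SK-LMS-1 after the combination (-0.05 to 0.02, and 0.01 with the replicate block) and between the DMSO sets (-0.00236 to 0.100). With total counts the first was -0.49. In the 4 pairs of groups that share both replicate numbers, deviations of same-numbered libraries correlated at -0.00676 to 0.0165. Among treatments with their own DMSO, these hold only the SK-LMS-1 combination with DMSO set 4 (-0.00676). Pairing by number in the other drug comparisons was not tested. With the replicate block, 6 members were higher and 23 lower after DMSO (beside 20.3% and 17.6%). Under this block MRPL38 was at -0.35 in SK-UT-1B and -0.42 in the difference between the lines, and MRPS24 at -3.86 after MK-0752 and -4.32 between the DMSO sets. With single libraries left out, MRPL38 ran from -5.45 to 4.09 between the lines, from -5.15 to 5.29 between the drugs, from -0.27 to 4.74 after MK-0752 and from -1.67 to 2.22 in SK-UT-1B. MRPS24 ran from -5.81 to 2.82 after MK-0752, from -5.79 to 2.25 between the DMSO sets and from -7.00 to 0.00 in SK-UT-1B, fitted values that depend on the prior count and are no fold. MRPL12 ran from -0.16 to 1.07 in SK-LMS-1 after the combination. The cause was not tested. How depth bears on the calls was not tested, and MRPS24 and MRPL38 were at or near the floor of 3 counts in several libraries.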
